A study of Mus musculus with 12 samples.

Results

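The retinoid genes examined here were Rbp4 and Stra6 (carriage and uptake of retinol), Rdh10 and Rdh5 (retinol dehydrogenases), Aldh1a1, Aldh1a2 and Aldh1a3 (retinaldehyde dehydrogenases) and Crabp1 and Crabp2 (retinoic acid-binding proteins). They were taken by symbol from an expression table of 52459 gene symbols, and all 9 were present. The samples were choroid plexus, the folded epithelium with its vascular stroma that secretes cerebrospinal fluid into the brain ventricles. All mice were of the B6 strain. The 4 ages, each with 3 libraries, were an embryonic stage (E12.5), the day of birth (P0), day 14 after birth (P14) and 6 months (A6m). No allele or treatment is named for any of these groups, and the labels give no sex, no ventricle and no number of animals per library. Levels are TPM, transcript abundances on a fixed total that are adjusted for transcript length, and are given as mean ± SD over 3 libraries.

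Vitamin A travels as retinol bound to the carrier RBP4, which in blood is held by transthyretin, the main secretory product of this epithelium. The membrane receptor STRA6 takes retinol up from RBP4. Retinol dehydrogenases such as RDH10 oxidise retinol to retinaldehyde, and the ALDH1A enzymes oxidise retinaldehyde further to retinoic acid, a ligand of nuclear receptors. CRABP1 and CRABP2 bind retinoic acid in the cytoplasm, and CYP26 enzymes break it down. In the developing brain the choroid plexus and the meninges are known as sources of retinoic acid.

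Between 13614 and 16994 symbols per library reached 1 TPM. A group of 7 features led by Mir6236 and Gm42418 held 16.5% of the TPM of E12.5 replicate 1, where replicates 2 and 3 of that age held 2.46% and 3.29%. The A6m libraries had Xist, from the inactive X chromosome, at 148 to 155 TPM and the Y-linked Ddx3y at 0.366 TPM or less. The P0 and P14 libraries had Xist at 0.808 TPM or less and Ddx3y at 80.1 to 117 TPM. In E12.5 replicates 1 to 3, the level of Xist was 139, 0.389 and 89.5 TPM. That of Ddx3y in the same libraries was 9.26, 54.4 and 50.9 TPM. Age and sex therefore cannot be told apart in comparisons of A6m with P0 or P14, and the comparisons with E12.5 also differed in these transcripts. The epithelial markers Ttr, Folr1, Kcnj13, Otx2, Aqp1, Clic6, Enpp2 and Kl were present at every age. Their summed level, most of it Ttr, was 12660 to 23450 TPM at E12.5 and 148200 to 194700 TPM at the later ages. At A6m against E12.5, 5 of these 8 markers were called higher and 0 lower (8 and 0 with scaling), and Otx2, Aqp1 and Clic6 did not pass without scaling. Of all tested genes, 15.2% were called higher there and 62.0% lower (35.4% and 35.8% with scaling). Markers of other cells moved with age too. The mean sum of 6 endothelial markers was 275, 148, 53.4 and 18.3 TPM at E12.5, P0, P14 and A6m, and all 6 fell at each step. At these steps 43.7%, 53.5% and 12.1% of all tested genes were called lower. The sum was 145, 102, 87.8 and 18.4 TPM for 5 mural markers, 119, 68.9, 32.6 and 18.5 TPM for 6 macrophage markers and 34130, 6426, 562 and 209 TPM for 6 erythroid markers. Between E12.5 and P0, 2 mural markers fell and 1 rose (1 and 2 with scaling), 4 macrophage markers fell and 0 rose, and 5 erythroid markers fell and 1 rose. Glial markers went another way, as the sum of 4 was highest at P14. It was 11.3 to 13.9, 14.7 to 25.8, 35.7 to 70.7 and 26.7 to 33.5 TPM at the 4 ages. Of the 3 tested glial markers, 1 rose and 0 fell to P0, and 2 rose and 0 fell to P14. From P14 to A6m 0 rose and 1 fell, and scaling left these counts as they were. At these steps 18.6%, 5.33% and 8.78% of all tested genes were called higher. The part of these cell types in the members' differences was not tested. In whole tissue, fewer cells of a type and less RNA per cell cannot be told apart. Over the 17422 tested genes the median log2 difference was -0.27 at P0 against E12.5, -0.41 at P14 against P0, -0.04 at A6m against P14 and -0.71 at A6m against E12.5. After median-of-ratios scaling (referred to as scaling) these medians lay between -0.022 and 0.001.

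From E12.5 to birth Rbp4, Stra6, Rdh10, Rdh5, Aldh1a1 and Aldh1a2 rose, which are genes for retinol carriage and uptake and for retinaldehyde and retinoic acid synthesis, while the retinoic acid-binding protein genes Crabp1 and Crabp2 fell. The differences are on the log2(TPM + 1) scale, which understates changes of low genes, and a gene was called at a limma adjusted p under 0.05 over all tested genes. Of the 9 members, 8 were tested, because Aldh1a3 reached 1 TPM in 0 libraries and at least 3 were required. At P0 against E12.5, 6 of the 8 were higher and 2 lower. In the same comparison 62.3% of all tested genes were called, 18.6% higher and 43.7% lower (60.0%, 29.0% and 31.0% with scaling, which left the members' counts as they were). Crabp1 had passed the filter through its E12.5 libraries and P0 replicate 1, so the counts over the tested members are a description.

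From P0 to P14, 1 tested member rose and 5 fell, against 5.33% of all tested genes called higher and 53.5% called lower, 58.8% in all. With scaling 2 members rose and 4 fell, against 22.7% and 19.8% of all tested genes, 42.5% in all. From P14 to A6m, 3 members rose and 0 fell, where 8.78% of all tested genes were called higher and 12.1% lower, 20.9% in all. The members' counts were the same with scaling, where 5077 of the 17422 tested genes were called, 2643 of them higher. Over the whole span from E12.5 to A6m, 4 rose and 2 fell, where 15.2% of all tested genes were called higher and 62.0% lower, 77.2% in all (35.4%, 35.8% and 71.2% with scaling, and the same members' counts). All 8 tested members passed limma's F-test over the 4 ages, as did 85.1% of all tested genes. The members that rose over the whole span were Rdh5, Rdh10, Stra6 and Aldh1a1. The libraries of the 2 ages did not overlap for 62.7% of tested genes at P0 against E12.5, 69.3% at P14 against P0, 44.3% at A6m against P14 and 76.9% at A6m against E12.5, so a lack of overlap was common. For the order of levels, the remaining pairs of ages were also compared. At P14 against E12.5, 4 members were higher and 2 lower (75.5% of all tested genes called, 13.4% higher and 62.1% lower), and at A6m against P0, 3 were higher and 5 lower (64.4% called, 9.78% higher and 54.6% lower).

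**Figure D1:**
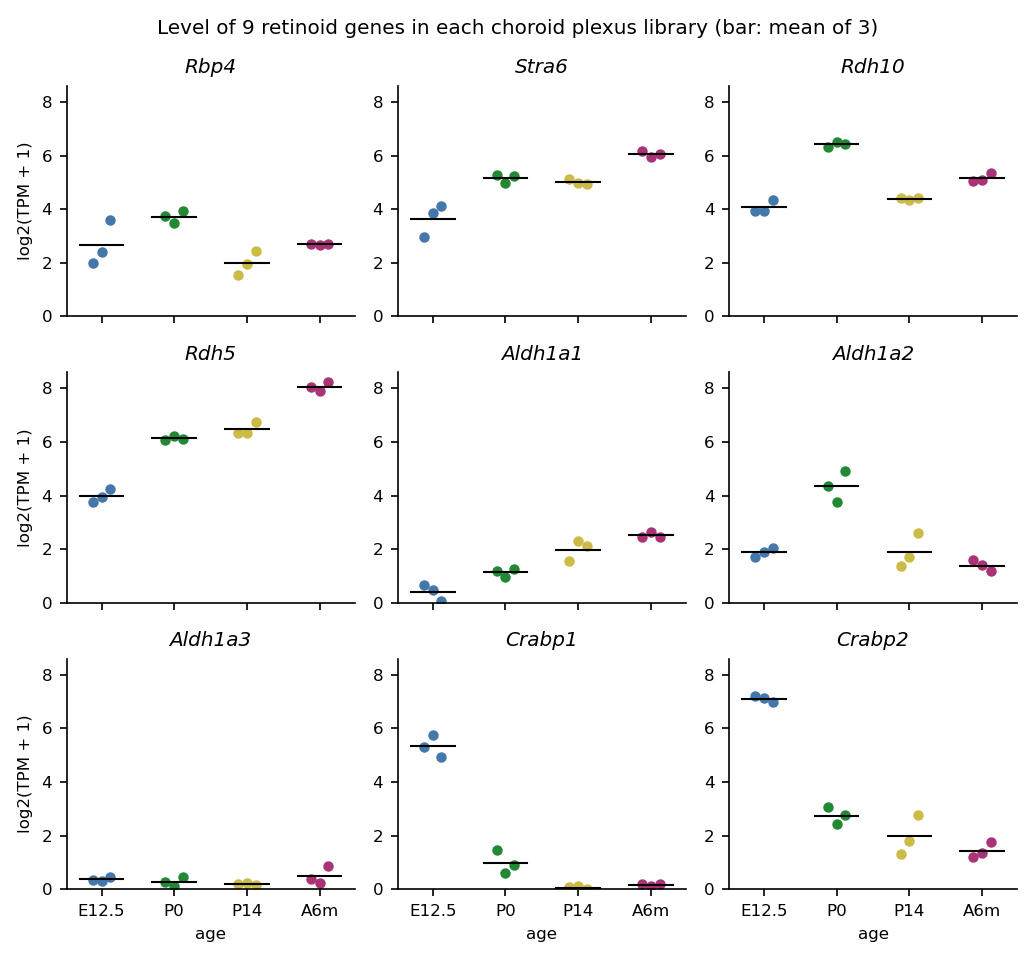
Level of each of the 9 genes on the log2(TPM + 1) scale (y axis) at the 4 ages (x axis), with 1 point per library and a bar at the mean of 3. Rdh5 and Aldh1a1 were lowest at E12.5 and highest at A6m, Rdh10 and Aldh1a2 were highest at P0, and Crabp1 and Crabp2 were highest at E12.5.

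Rbp4, the gene of the plasma retinol carrier, lies on chromosome 19 at 38116629 to 38125281 (GRCm38, GENCODE M21). Its level was 3.03, 4.23 and 11.0 TPM in E12.5 replicates 1 to 3, then 12.4, 10.3 and 14.4 TPM at P0, 1.91, 2.87 and 4.49 TPM at P14 and 5.50, 5.39 and 5.57 TPM at A6m. The E12.5 libraries were spread widely and 1 of them overlapped the P0 libraries, while the A6m libraries lay close together. Rbp4 rose to P0 (log2 difference 1.07, 95% interval 0.29 to 1.84, adjusted p = 0.0207). That call was lost without E12.5 replicate 1 (adjusted p = 0.0790), E12.5 replicate 2 (0.0698) or P0 replicate 3 (0.0665), and with only the 6 libraries of these ages (0.0602). Between P0 (12.3 ± 2.05 TPM) and P14 (3.09 ± 1.31 TPM) it fell, with a log2 difference of -1.74 (adjusted p = 0.00161). The step from P14 to A6m did not pass the test (log2 difference 0.71, -0.06 to 1.49, adjusted p = 0.187), although without E12.5 replicate 3 its adjusted p was 0.0367. In the order P0, E12.5, A6m, P14, only P0 and E12.5 were neighbours with an adjusted p under 0.05, although their libraries overlapped and those of A6m and P14 did not.

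Stra6, the gene of the receptor that takes up retinol from RBP4, lies on chromosome 9 at 58063788 to 58153996. Its level was 6.86, 13.4 and 16.2 TPM at E12.5, 38.0, 30.8 and 37.3 TPM at P0, 33.9, 30.7 and 29.5 TPM at P14 and 71.1, 60.1 and 65.5 TPM at A6m. The E12.5 libraries were all below, and the A6m libraries all above, those of the ages between them, whereas P0 and P14 overlapped. Stra6 rose 2.91-fold to P0 (log2 difference 1.53, 95% interval 1.03 to 2.04, adjusted p = 1.49e-04). It rose again, 2.09-fold, from P14 to A6m (log2 difference 1.04, 0.53 to 1.55, adjusted p = 0.00831). P14 against P0 gave a log2 difference of -0.16 (-0.67 to 0.34, adjusted p = 0.562), whose sign turned with scaling (0.34, adjusted p = 0.143).

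Rdh10, which encodes the main enzyme that turns retinol into retinaldehyde in embryos, lies on chromosome 1 at 16105774 to 16133734. Its level was 14.5, 14.4 and 19.0 TPM at E12.5, 79.6, 89.7 and 85.0 TPM at P0, 20.5, 19.4 and 20.2 TPM at P14 and 32.3, 32.8 and 40.0 TPM at A6m. The P0 libraries stood above all others, and no 2 ages overlapped. Rdh10 rose 5.30-fold to P0 (log2 difference 2.35, 95% interval 2.10 to 2.60, adjusted p = 4.05e-08) and fell 4.23-fold to P14 (log2 difference -2.03, adjusted p = 7.54e-07). It then rose 1.75-fold to A6m (log2 difference 0.77, 0.52 to 1.02, adjusted p = 7.57e-04). All neighbours in the order P0, A6m, P14, E12.5 differed, the last pair by a log2 difference of 0.32 (adjusted p = 0.0242). Its level at A6m was above that at E12.5 by 1.09 on the log2 scale as deposited, and by 1.90 with scaling.

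Rdh5 encodes a retinol dehydrogenase best known from the retinal pigment epithelium, where it acts on cis-retinol in the visual cycle. Its level was 12.47, 14.24 and 17.99 TPM at E12.5, 67.0, 73.2 and 68.5 TPM at P0, 80.6, 79.3 and 105 TPM at P14 and 268, 238 and 299 TPM at A6m. The libraries of the 4 ages did not overlap, and P14 replicate 3 stood above the other P14 libraries. Rdh5 rose 4.67-fold to P0 (log2 difference 2.16, 95% interval 1.85 to 2.48, adjusted p = 3.15e-07) and 3.04-fold from P14 to A6m (log2 difference 1.60, 1.29 to 1.91, adjusted p = 2.42e-05). Over the whole span it rose 18.0-fold (log2 difference 4.09, adjusted p = 7.50e-10). By mean level it moved from rank 8185 of the 17422 tested genes at E12.5 to rank 283 at A6m. P14 against P0 did not pass as deposited (0.33, 0.02 to 0.64, adjusted p = 0.0656) but did with scaling (0.84, adjusted p = 1.09e-04), without E12.5 replicate 1 (adjusted p = 0.0434) and without E12.5 replicate 3 (0.0339).

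Rdh5 lies on the minus strand of chromosome 10 at 128913593 to 128922888, and 720 bases (25.6%) of its annotated exons are shared with Bloc1s1 on the same strand. Bloc1s1, a gene of a lysosome biogenesis complex, was at 163, 245, 238 and 268 TPM on average at E12.5, P0, P14 and A6m. How reads of the shared exons were split between both genes is not given in the sources used here, so the level of Rdh5 carries that uncertainty. Rdh5 is also a gene of the retinal pigment epithelium, and among the markers of that tissue Rpe65 stayed at or below 0.243 TPM and Tyr at or below 0.289 TPM in all 12 libraries. The other 2 markers, Rlbp1 and Mitf, were at 1.30 to 26.0 and 20.7 to 69.3 TPM.

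Rdh5 and Rdh10 both rose to P0 and both rose from P14 to A6m, but between P0 and P14 Rdh10 fell while the difference of Rdh5 did not pass the test. Rdh5 made up 46.3% to 49.7% of the summed TPM of both genes at E12.5 and 44.6% to 45.7% at P0. It made up 79.7% to 83.9% at P14 and 87.9% to 89.2% at A6m. The ratio of Rdh5 to Rdh10 within a library went from 0.807 to 0.842 at P0 to 7.26 to 8.29 at A6m, a quantity that a scaling factor per library cannot alter. The sum of both was 30.9 ± 5.40, 154 ± 8.18, 108 ± 14.8 and 303 ± 33.9 TPM at E12.5, P0, P14 and A6m.

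**Figure D2:**
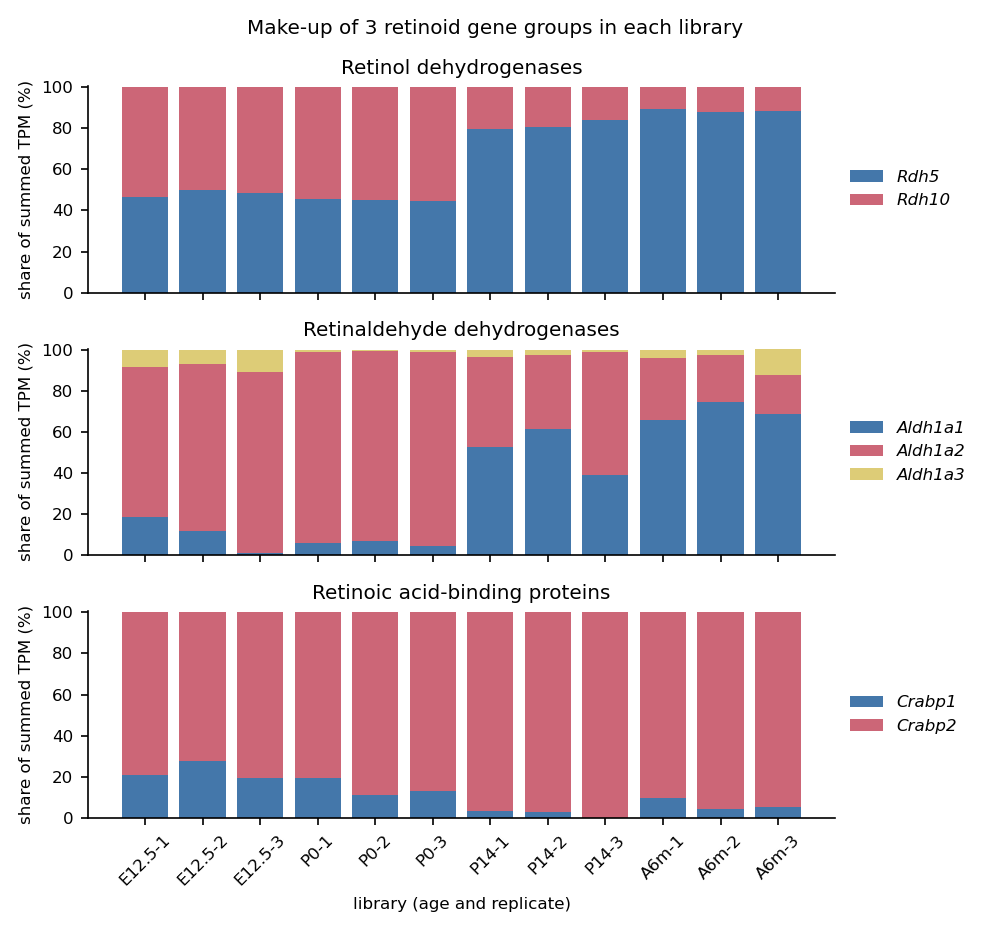
Share of each gene in the summed TPM of its group (y axis, percent) in each of the 12 libraries (x axis), for Rdh5 with Rdh10, for the 3 Aldh1a genes and for the 2 Crabp genes. Rdh5 took 44.6% to 49.7% up to P0 and 79.7% or more from P14 on, and Aldh1a1 took 65.6% to 74.6% of the Aldh1a sum at A6m.

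Aldh1a2, the gene of the retinaldehyde dehydrogenase of the embryonic mesenchyme and the meninges, lies on chromosome 9 at 71215789 to 71296243. Its level was 2.28, 2.75 and 3.10 TPM at E12.5, 19.5, 12.6 and 28.9 TPM at P0, 1.58, 2.29 and 5.12 TPM at P14 and 2.03, 1.63 and 1.25 TPM at A6m. The P0 libraries were all above those of the other ages and spanned 12.6 to 28.9 TPM. Aldh1a2 rose 7.49-fold to P0 (log2 difference 2.45, 95% interval 1.73 to 3.18, adjusted p = 6.48e-05) and fell 6.78-fold to P14 (log2 difference -2.44, -3.16 to -1.72, adjusted p = 1.36e-04). No difference among P14, E12.5 and A6m passed the test (adjusted p = 0.972 for P14 against E12.5, 0.323 for A6m against P14 and 0.186 for A6m against E12.5), although the A6m libraries lay below the E12.5 libraries.

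Slc6a13, which encodes a GABA transporter found in meningeal cells, was among the genes most like Aldh1a2. It was at 1.41, 1.94 and 2.67 TPM at E12.5, 21.7, 16.5 and 24.2 TPM at P0, 1.17, 2.10 and 4.18 TPM at P14 and 1.02, 0.874 and 0.425 TPM at A6m. Since the gene was found by its likeness over the same 12 libraries, a similar order of the libraries is part of that choice. The ratio of Aldh1a2 to Slc6a13 was 0.763 to 1.62 up to P14 and 1.86 to 2.93 at A6m. Slc6a13 belongs to the list of 10 fibroblast and meningeal markers. The summed level of that list was 1042 to 1385 TPM at E12.5, 610 to 636 TPM at P0, 269 to 318 TPM at P14 and 169 to 241 TPM at A6m. At P0 against E12.5, 3 of its 10 members rose (Slc6a13, Dcn and Pdgfra) and 7 fell, and none of the 10 was at 0 in all libraries. Of all tested genes, 18.6% were called higher there and 43.7% lower. The part of these cells in the level of Aldh1a2 was not tested.

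**Figure D3:**
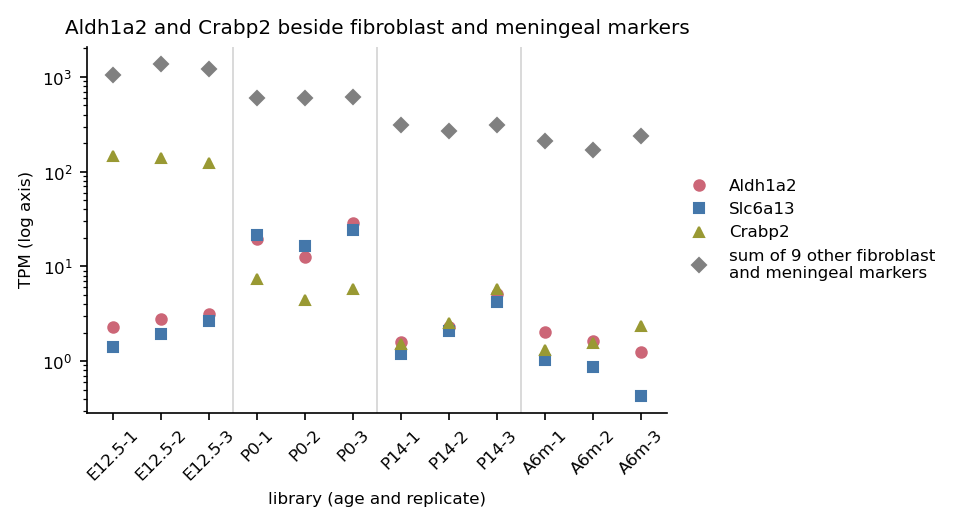
TPM on a log axis (y) of Aldh1a2, Crabp2, Slc6a13 and the sum of the other 9 fibroblast and meningeal markers in each library (x). Aldh1a2 and Slc6a13 were highest in the P0 libraries (12.6 to 28.9 and 16.5 to 24.2 TPM), while the sum of the other markers was highest at E12.5.

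Aldh1a1, the gene of another retinaldehyde dehydrogenase, lies on chromosome 19 at 20492715 to 20643465. Its level was 0.584, 0.394 and 0.0444 TPM at E12.5, 1.27, 0.939 and 1.37 TPM at P0, 1.91, 3.89 and 3.32 TPM at P14 and 4.43, 5.27 and 4.49 TPM at A6m. Each age lay above the one before it without overlap, at a low level throughout. Aldh1a1 rose to P0 (log2 difference 0.73, 95% interval 0.27 to 1.19, adjusted p = 0.0103) and to P14 (0.85, 0.39 to 1.31, adjusted p = 0.00496). A6m against P14 did not pass (0.53, 0.07 to 0.99, adjusted p = 0.0993), although the whole span did (2.11, adjusted p = 2.71e-06). Aldh1a3, on chromosome 7 at 66390890 to 66427517, encodes the third enzyme of the family and did not enter the tests. Its level was 0.235 to 0.374 TPM at E12.5, 0.0834 to 0.384 TPM at P0, 0.108 to 0.174 TPM at P14 and 0.169 to 0.803 TPM at A6m, where the top value belonged to replicate 3 alone.

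The make-up of the Aldh1a family turned over with age. Aldh1a2 took 80.9% ± 7.53 of the summed TPM of the 3 genes at E12.5 and 93.2% ± 0.924 at P0, against 46.5% ± 12.2 at P14 and 24.1% ± 5.58 at A6m. Aldh1a1 took 5.82% ± 1.24 at P0 and 69.6% ± 4.57 at A6m. The P14 libraries were mixed, since Aldh1a1 held the larger share in replicates 1 and 2 (52.7% and 61.3%) and Aldh1a2 in replicate 3 (59.9%). The sum of the 3 genes was 3.34 ± 0.206 TPM at E12.5, 21.7 ± 8.55 TPM at P0, 6.18 ± 2.46 TPM at P14 and 6.79 ± 0.268 TPM at A6m.

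Crabp2 encodes the protein that carries retinoic acid to its nuclear receptors, and its gene lies on chromosome 3 at 87948666 to 87953376. Its level was 146, 140 and 125 TPM at E12.5, 7.27, 4.37 and 5.76 TPM at P0, 1.51, 2.50 and 5.81 TPM at P14 and 1.30, 1.56 and 2.36 TPM at A6m. The E12.5 libraries stood far above all others, and P14 replicate 3 lay within the range of P0. Crabp2 fell 23.6-fold to P0 (log2 difference -4.36, 95% interval -5.04 to -3.68, adjusted p = 5.65e-07). At E12.5 it ranked 881 of the 17422 tested genes, and at A6m 12560. The further difference from P0 to P14 was called narrowly (log2 difference -0.78, -1.46 to -0.10, adjusted p = 0.0494). That call was lost in 21 of 25 alternatives, with adjusted p from 0.00183 to 0.962 over all of them, and the log2 difference was -0.37 with scaling, -0.46 without P14 replicate 1 and -1.18 without P14 replicate 3. A6m against P14 did not pass (-0.53, -1.21 to 0.15, adjusted p = 0.272).

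Crabp1, the gene of the other cytoplasmic retinoic acid-binding protein, lies on chromosome 9 at 54764748 to 54773110. Its level was 38.4, 53.4 and 29.7 TPM at E12.5, 1.72, 0.534 and 0.881 TPM at P0, 0.0510 and 0.0752 TPM in P14 replicates 1 and 2, and 0.136, 0.0730 and 0.133 TPM at A6m. P14 replicate 3 was listed at 0. Crabp1 fell 38.7-fold to P0 (log2 difference -4.34, 95% interval -4.85 to -3.84, adjusted p = 6.91e-08) and again to P14 (-0.93, -1.43 to -0.43, adjusted p = 0.00493). The call at P14 was lost with a pseudocount of 5 (adjusted p = 0.164) and with limma treat at 1.5-fold (adjusted p = 0.409). A6m against P14, both near the lower end of the scale, did not pass (0.10, -0.41 to 0.60, adjusted p = 0.826). Markers of neurons and neural progenitors were also uneven at E12.5. The sum of 6 such markers was 36.0, 110 and 65.3 TPM in E12.5 replicates 1 to 3, 39.9 to 53.2 TPM at P0, 28.0 to 39.7 TPM at P14 and 27.0 to 30.5 TPM at A6m, none being at 0 in all libraries. From P0 on most of that sum was Sox2, at 35.3, 23.2 and 25.4 TPM on average at P0, P14 and A6m. Tubb3 averaged 25.7, 3.34, 1.46 and 0.522 TPM at the 4 ages. Of the 5 tested markers, 1 (Tubb3) fell between E12.5 and P0 and 0 rose (1 and 1 with scaling). Of all tested genes, 43.7% were called lower there and 18.6% higher (31.0% and 29.0% with scaling). E12.5 replicate 2 was highest for the neuronal sum, for Crabp1 and for the sums of fibroblast, mural, macrophage and glial markers. The sums of endothelial, epithelial and retinal pigment epithelium markers were highest in replicate 3 and that of erythroid markers in replicate 1. The neuronal sum was lowest in replicate 1 and Crabp1 in replicate 3. The part of any of these cells in the level of Crabp1 was not tested.

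Both binding protein genes fell between E12.5 and P0, with log2 differences of -4.34 and -4.36. Crabp2 exceeded Crabp1 2.62- to 4.21-fold at E12.5 and 4.22- to 8.19-fold at P0, a difference that was not tested and that rests on Crabp1 at 0.534 to 1.72 TPM. Their sum was 177 ± 20.3 TPM at E12.5 and 6.85 ± 2.06 TPM at P0. Set against Aldh1a2, the gene of an enzyme that makes their ligand, Crabp2 was at 40.2 to 64.2 times its level at E12.5. At P0 it was at 0.199 to 0.373 times the level of Aldh1a2. Aldh1a1 and Aldh1a3 were not part of this ratio.

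**Figure D4:**
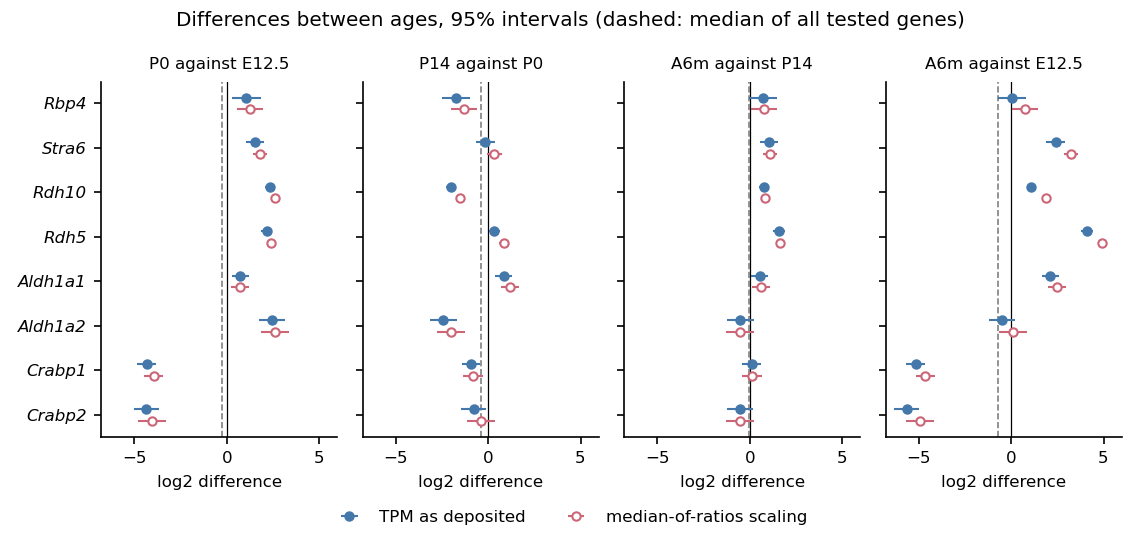
Log2 difference (x axis) with its 95% interval for the 8 tested genes (y axis) in 4 comparisons, from TPM as deposited (filled) and after scaling (open), with a dashed line at the median of all tested genes. At P0 against E12.5 all genes but Crabp1 and Crabp2 lay above 0 on both scales.

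Sequences upstream of 2 members with opposite courses, Rdh5 and Crabp1, are shown beside that of Rarb, a receptor gene known as a direct target of retinoic acid. Each is the stretch of 250 bases before the annotated start (RefSeq, GRCm38.p6), written 5′ to 3′ on the strand of the gene. For Rdh5 this start differs from that of the GENCODE locus given above, which begins at 128922888 on the minus strand. The Rdh5 stretch therefore lies inside the GENCODE locus. In Rdh5 (chr10:128919298-128919547, minus strand) and Crabp1 (chr9:54764498-54764747, plus strand) capitals mark each CG pair. In Rarb (chr14:16575477-16575726, minus strand) capitals mark a direct repeat.
Rdh5: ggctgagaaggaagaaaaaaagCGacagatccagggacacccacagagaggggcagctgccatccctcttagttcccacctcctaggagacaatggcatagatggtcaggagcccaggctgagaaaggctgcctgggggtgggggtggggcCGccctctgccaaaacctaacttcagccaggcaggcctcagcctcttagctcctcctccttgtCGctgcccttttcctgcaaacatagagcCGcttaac
Crabp1: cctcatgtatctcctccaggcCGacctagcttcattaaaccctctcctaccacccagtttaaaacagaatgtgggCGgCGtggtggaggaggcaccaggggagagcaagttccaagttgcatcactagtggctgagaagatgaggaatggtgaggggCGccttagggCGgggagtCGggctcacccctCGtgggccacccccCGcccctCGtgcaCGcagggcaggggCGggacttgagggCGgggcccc
Rarb: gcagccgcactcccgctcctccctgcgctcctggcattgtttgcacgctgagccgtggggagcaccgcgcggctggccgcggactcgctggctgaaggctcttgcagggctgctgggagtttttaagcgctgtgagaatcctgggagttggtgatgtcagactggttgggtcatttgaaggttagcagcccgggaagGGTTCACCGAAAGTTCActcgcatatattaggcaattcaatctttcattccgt
The Rdh5 stretch held 4 CG pairs and the Crabp1 stretch 12, against a median of 6 over the 32851 stretches of all genes in the table. Fewer CG pairs than in Rdh5 were found in 37.8% of those stretches, and fewer than in Crabp1 in 66.5%.

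The retinoic acid response element of textbooks is a direct repeat of a half-site of the nuclear receptors with a spacer of 5 bases, or 1 or 2. The half-sites searched were the consensus AGGTCA, the form AGTTCA, the form GGTTCA and the form GGGTCA, on both strands and with any overlap between them, in windows from 250 bases before to 50 after each start. The repeat with 5 bases between was present in 0.0974% of the 32851 windows, with 2 bases in 0.268% and with 1 base in 0.222%. A repeat with 5 bases between began 53 bases before the start of Rarb. For the members, 11 windows of 6 genes were in the table (Rbp4, Stra6, Rdh5, Aldh1a1, Aldh1a2 and Crabp1), and Rdh10, Crabp2 and Aldh1a3 were not matched. All windows of Rdh5 and Stra6 lay inside the GENCODE loci given above. None of the 11 windows held a repeat with any of the 3 spacers. Single half-sites, present in 43.7% of all windows, were in 3 of the 11, 1 each of Rbp4, Stra6 and Aldh1a1. These letters say nothing of elements outside the windows.

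Around these members, a list of 57 other retinoid genes was examined, of which 56 were in the table and 39 were tested. At P0 against E12.5, 15 of the 39 rose and 17 fell (18 and 11 with scaling). Of all tested genes, 18.6% were called higher there and 43.7% lower (29.0% and 31.0% with scaling). At P14 against P0, 0 rose and 23 fell (6 and 13 with scaling), against 5.33% and 53.5% of all tested genes (22.7% and 19.8% with scaling). At A6m against P14, 4 rose and 5 fell (6 and 6 with scaling), against 8.78% and 12.1% of all tested genes. With scaling 5077 of the 17422 tested genes were called there, 2643 of them higher. At A6m against E12.5, 12 rose and 23 fell (17 and 15 with scaling), against 15.2% and 62.0% (35.4% and 35.8% with scaling). The median log2 difference of the 39 was -0.20, -0.44, -0.05 and -0.70 in these comparisons, beside -0.27, -0.41, -0.04 and -0.71 over all tested genes.

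Intracellular carriers went different ways. Rbp2, whose product binds retinol in the gut, rose from 2.39 to 36.6 TPM at P0 and fell to 13.3 TPM at P14 and 3.86 TPM at A6m (log2 differences 3.49, -1.39 and -1.56, adjusted p = 2.03e-08, 3.41e-05 and 4.30e-05). Fabp5, whose product also binds retinoic acid, fell at every step, from 82.8 to 14.9, 7.27 and 3.04 TPM (log2 differences -2.38, -0.95 and -1.03). The fall to P14 did not pass with scaling (adjusted p = 0.0724). Rlbp1, the gene of the cellular retinaldehyde-binding protein, went up, down and up again like Rdh10, at 4.05, 24.9, 2.06 and 10.7 TPM, and each step passed (log2 differences 2.44, -3.12 and 1.97, adjusted p = 3.11e-05, 1.53e-05 and 8.48e-04). Lrp2, the gene of an endocytic receptor that takes up retinol with its carrier, fell from 13.7 to 1.81 and 0.371 TPM (log2 differences -2.39 and -1.03, adjusted p = 3.18e-08 and 3.33e-05).

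Of 11 tested genes of other retinol and retinaldehyde dehydrogenases and reductases, 6 rose and 4 fell at P0 against E12.5. In that comparison 18.6% of all tested genes were called higher and 43.7% lower. Dhrs3, whose product reduces retinaldehyde back to retinol, rose from 15.1 to 77.2 TPM (by 2.30 on the log2 scale, adjusted p = 1.01e-07) and lay at 67.7 and 67.2 TPM at P14 and A6m. The ratio of Rdh10 to Dhrs3 was 0.818 to 1.26 at E12.5 and 1.00 to 1.17 at P0, then 0.275 to 0.319 at P14 and 0.460 to 0.585 at A6m. Adh1, an alcohol dehydrogenase gene whose product also oxidises retinol, rose from 0.199 to 18.2 TPM at P0 (log2 difference 4.00, adjusted p = 1.37e-07) and fell from 14.8 TPM at P14 to 7.55 TPM at A6m (-0.91, adjusted p = 0.0178). Akr1b8 and Akr1b3, genes of aldo-keto reductases, fell from 20.3 to 1.82 TPM and from 49.1 to 17.4 TPM at P0 (log2 differences -2.90 and -1.44, adjusted p = 1.07e-07 and 2.29e-07). Rdh12 rose from 1.09 TPM at P14 to 5.39 TPM at A6m (log2 difference 1.60, adjusted p = 2.70e-05).

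Of the CYP26 genes for the breakdown of retinoic acid, only Cyp26b1 was tested. It was at 4.06, 7.00, 1.57 and 0.824 TPM at the 4 ages, rose to P0 (log2 difference 0.78, adjusted p = 0.0370) and fell to P14 (-1.64, adjusted p = 7.64e-04). Its level was 1.52, 5.40 and 5.27 TPM in E12.5 replicates 1 to 3 and 6.69 to 7.50 TPM at P0, so replicate 1 lay well below the other E12.5 libraries. Among 13 nuclear receptors, corepressors and coactivators, 1 rose and 9 fell at P0 against E12.5 (3 and 5 with scaling). Of all tested genes, 18.6% were called higher there and 43.7% lower (29.0% and 31.0% with scaling). At P14 against P0, 0 rose and 7 fell (0 and 6 with scaling), against 5.33% and 53.5% of all tested genes (22.7% and 19.8% with scaling). Rarb went from 19.4 to 9.99 and 3.66 TPM (log2 differences -0.88 and -1.24, adjusted p = 0.00124 and 2.09e-04) and Rara from 19.9 to 11.3 and 6.08 TPM (-0.77 and -0.79, adjusted p = 5.37e-04 and 6.40e-04). Both falls of both genes were also called with scaling. At A6m against P14, 0 of the 13 were called (1 higher with scaling), where 20.9% of all tested genes were called. With scaling 5077 of the 17422 tested genes were called there, 2643 of them higher. In the storage and hydrolysis list, 3 of 4 tested genes rose at P0 against E12.5, where 18.6% of all tested genes were called higher. Among the 3 was Lpl, the gene of lipoprotein lipase, from 14.1 to 29.1 TPM (by 1.00 on the log2 scale, adjusted p = 0.00153). Lrat, the gene of the enzyme that esterifies retinol, stayed at or below 1.28 TPM in all libraries.

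**Figure D5:**
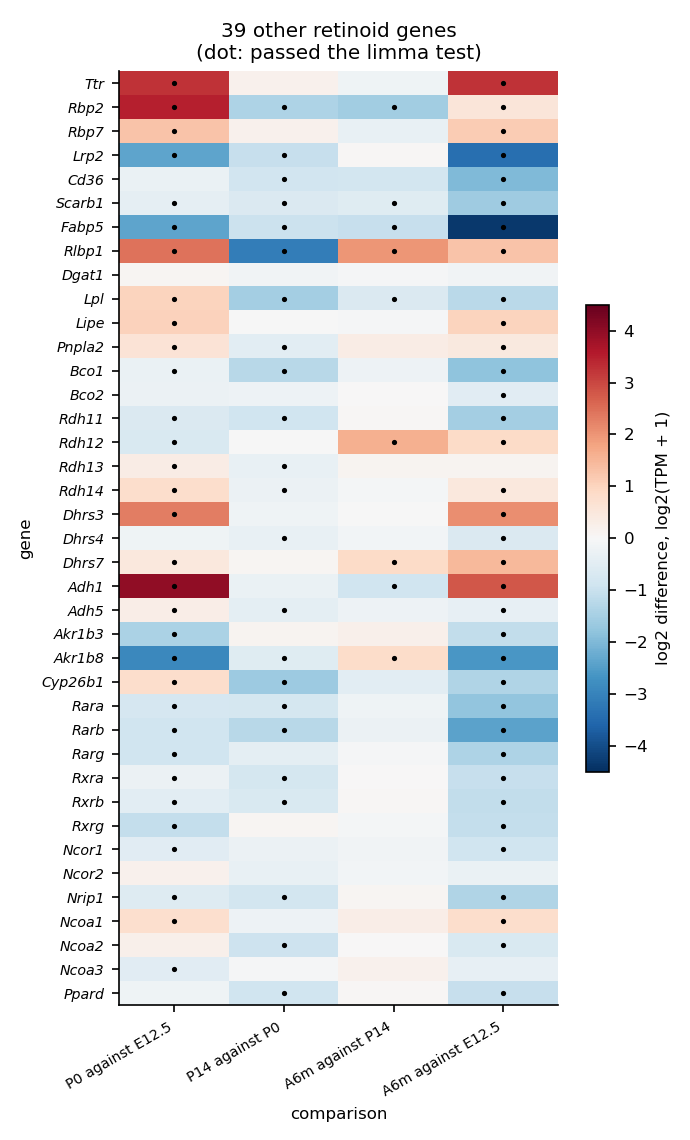
Log2 difference on the log2(TPM + 1) scale (colour) of the 39 other tested retinoid genes (rows) in 4 comparisons (columns), with a dot where the limma test was passed. At P0 against E12.5, 15 genes rose and 17 fell, where 18.6% of all tested genes were called higher and 43.7% lower. At P14 against P0, 0 rose and 23 fell, against 5.33% and 53.5% of all tested genes.

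The genes most like each tested member were found by the root-mean-square difference between their profiles on the log2 scale over the 12 libraries, each centred on its own mean, among 11681 genes. For Rdh5, whose own profile had a root-mean-square spread of 1.47, they were Ociad2 (0.19), Cidea (0.22) and Igfn1 (0.28). For Rdh10 (own spread 0.91) they were Ass1 (0.19), Nqo1 (0.20) and Baiap2l2 (0.31). Nqo1, the gene of a quinone reductase, was at 26.0, 173, 36.2 and 78.1 TPM at the 4 ages. For Stra6 (0.90) they were Pon3 (0.19), Nr1d2 (0.20) and Bhlhe41 (0.21), the last 2 being genes of repressors in the circadian clock. For Rbp4 (0.74) the nearest, Tst, Sorcs2 and N4bp2os, differed by 0.34 to 0.36. For Aldh1a1 (0.84) they were Sh3rf2 (0.26), Reep5 (0.28) and Chst11 (0.29), and for Aldh1a2 (1.21) Sidt1 (0.28), Slc6a13 (0.28) and Stfa3 (0.31). For Crabp1 (2.18) they were Rspo1 (0.29), Fzd10 (0.33) and Ptx3 (0.34), of which Rspo1 and Fzd10 are genes of the Wnt pathway. For Crabp2 (2.27) they were Pclaf (0.37), Bub1 (0.40) and Slc38a4 (0.43), of which Pclaf and Bub1 are genes of dividing cells.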

How the data were processed

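The authors deposited TPM, made with kallisto on the GRCm38 build, per the submitters' processing notes, which name no version. The annotation release, the strand setting and the step from transcripts to symbols are not given in the sources used here. Since TPM holds no read counts, depth is unknown, and neither a counting interval nor a count model could be used. Libraries came from total RNA with a Kapa mRNA HyperPrep kit and 100 bp paired ends, per the labels, with 3 or 4 independent specimens per datapoint. In the table, 12 columns were mapped to samples by title, and 7 columns were not used. Mutant tissue was not analysed here.

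Genes with at least 1 TPM in at least 3 of 12 libraries (17422) entered limma 3.58.1 in R 4.3.3 as log2(TPM + 1), fitted as 4 group means (8 residual degrees of freedom, eBayes with trend), with Benjamini-Hochberg adjustment over all tested genes. The fit was tested on simulated data. The replicate numbers did not pair the libraries. Intervals are 95% and not adjusted. Loci came from GENCODE M21, and 96.8% of tested symbols were found there. The members and lists were chosen with earlier results of these data known. A gene of the retinoid lists is not reported here and was left out of their counts. Named were all members, some of the retinoid genes that could be named by rule (those that averaged 20 TPM or more at 1 age or, per comparison, the 4 other called genes with the largest difference), and the 3 genes most like each member that averaged 5 TPM or more at 1 age, leaving out unnamed gene models, pseudogenes and mitochondrial genes. Rara, Lrat, Bloc1s1, Rpe65, Tyr, Mitf, Dcn, Pdgfra, Mir6236, Gm42418, Aqp1, Otx2, Clic6, Tubb3 and Sox2 were named after their values were seen. Alternatives changed the pseudocount (0.1 or 5), the filter (none, or an average of 5 TPM or more), the scaling (median-of-ratios over 19075 genes, quantile, or rescaling that leaves out either the 10 most abundant genes or Ttr, globin and mitochondrially encoded genes), the libraries (the 6 compared, or 1 left out in turn) and the model (array quality weights, a block for the replicate number, or limma treat at 1.5-fold). Rescaling without the 7 features high in E12.5 replicate 1 (over 300 TPM and over 4 times the mean of the other E12.5 libraries) was added after the data were seen. Python 3.11.15 with matplotlib 3.10.9 drew the figures.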

Additional observations from a re-analysis of the deposited data

How the results depend on the processing

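Of 796 values of single members under an alternative, 739 kept both direction and side of the threshold, 32 lost the call, 15 gained it and 10 changed sign. Under the alternatives run, 6 to 8 members were called at P0 against E12.5 and 5 to 7 at A6m against E12.5. Of the 17422 tested genes, 10848 were called at P0 against E12.5 as reported, 10456 with scaling and 3983 with limma treat. At A6m against E12.5 these counts were 13446, 12398 and 8436. At P14 against P0, 1 member rose as reported and 2 with scaling, quantile normalization, without the 10 most abundant genes, without Ttr, globin and mitochondrially encoded genes, only the 6 libraries compared, array quality weights, and without the features high in E12.5 replicate 1, while 0 rose with a mean of at least 5 TPM (where Aldh1a1 was not tested) and 0 with limma treat. Leaving out single libraries gave 1 to 2. Of all tested genes, 928 were called higher there as reported, 3956 with scaling, 3525 with quantile normalization and 180 with limma treat. In that comparison 3 members fell with a pseudocount of 5 and 3 with limma treat, where 3 were called in all. Of all tested genes, 9902 were called there with a pseudocount of 5 and 1626 with limma treat. At A6m against P14, limma treat called 1 member, which was higher, and 488 of all tested genes. Signs turned for Stra6 at P14 against P0 (0.34 with scaling, 0.21 with quantile normalization, 0.0374 without the 10 most abundant genes and 0.0933 without Ttr, globin and mitochondrially encoded genes), for Rbp4 at A6m against E12.5 (-0.0136 with a pseudocount of 5, -0.29 and -0.10 without E12.5 replicates 1 and 2, -0.29 to 0.50 over all libraries left out in turn, and -0.04 without the features high in E12.5 replicate 1) and for Aldh1a2 at A6m against E12.5 (0.0789 with scaling and 0.42 with quantile normalization). None of these was called as reported, and the cause was not tested. Calls were gained by Rbp4 at A6m against E12.5 with quantile normalization (0.91, adjusted p = 0.0267) and by Aldh1a2 with only the 6 libraries of those ages (-0.50, adjusted p = 0.0312).

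With the replicate number as a block, 2 members rose at P14 against P0, and of all tested genes 10568 were called at P0 against E12.5, 9897 at P14 against P0, 3162 at A6m against P14 and 13334 at A6m against E12.5, against 10848, 10244, 3642 and 13446 without it. Same-numbered libraries of 2 ages had correlated deviations (r over 0.1) in 1 of 18 pairs, and a library correlated best with its own number in 8 of 36 cases, so the numbers did not pair them. Over all genes, limma treat left 3983, 1626, 488 and 8436 calls in the same order of comparisons, and array weights gave 5650 at A6m against P14. Depth is unknown, so levels under 1 TPM have no stated precision (Aldh1a3 at all ages, Aldh1a1 at E12.5 and in P0 replicate 2, Crabp1 in P0 replicates 2 and 3 and from P14 on). The calls of Aldh1a1 and Crabp1 at P0 against E12.5, P14 against P0 and A6m against E12.5 rest in part on such levels.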

Other observations

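Some libraries of 1 age held the same rank for a few of the genes. At P14, replicate 1 was lowest and replicate 3 highest for Rbp4 (1.91, 2.87 and 4.49 TPM), Aldh1a2 (1.58, 2.29 and 5.12 TPM), Crabp2 (1.51, 2.50 and 5.81 TPM), Slc6a13 (1.17, 2.10 and 4.18 TPM) and Rlbp1 (1.30, 1.71 and 3.17 TPM). Other members did not follow this order at P14, with Stra6 at 33.9, 30.7 and 29.5 TPM, Rdh10 at 20.5, 19.4 and 20.2 TPM, Aldh1a1 highest in replicate 2 and Crabp1 listed at 0 in replicate 3. The sum of the other 9 fibroblast and meningeal markers in the same libraries was 313, 267 and 314 TPM. Of the epithelial markers, Ttr (151600, 164600 and 168700 TPM) and Folr1 (1319, 1336 and 1416 TPM) had this order at P14. Kcnj13, Otx2, Aqp1, Clic6, Enpp2 and Kl did not. At E12.5, replicate 1 was lowest and replicate 3 highest for Rbp4 (3.03, 4.23 and 11.0 TPM), Stra6 (6.86, 13.4 and 16.2 TPM), Rdh5 (12.47, 14.24 and 17.99 TPM) and Aldh1a2 (2.278, 2.748 and 3.105 TPM). The epithelial genes Ttr (11200, 14130 and 21000 TPM) and Aqp1 (103, 178 and 285 TPM) had the same order, as did Folr1, Kcnj13, Otx2, Clic6, Enpp2 and Kl. Aldh1a1 (0.584, 0.394 and 0.0444 TPM) and Crabp2 (146, 140 and 125 TPM) had the reverse order, and Rdh10, Aldh1a3 and Crabp1 neither. In E12.5 replicate 1, 7 features held 16.5% of the TPM. These ranks were noticed after the values were seen and were not tested.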
